A study of Homo sapiens with 4 samples.

Results

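The genes described here encode the TGF-beta ligands (TGFB1, TGFB2 and TGFB3), the receptors (TGFBR1, TGFBR2 and TGFBR3) and the latent TGF-beta binding proteins (LTBP1, LTBP2, LTBP3 and LTBP4). They were taken by name, as the transcripts of these 10 genes among the 19010 genes with a coding transcript in the deposited tables. Transcripts typed as protein coding were summed per gene and kept apart from noncoding types such as short processed transcripts and retained introns. All 10 genes were listed, with 98 annotated transcripts, of which 51 were coding and 47 were noncoding. The RNA came from WI-38, an established human lung fibroblast line with a finite lifespan in culture. There were 4 libraries, 1 for each combination of age and fraction: young cells at population doubling level 21 and replicatively senescent cells at level 60, each as whole cells and as mitoplasts. Mitoplasts are mitochondria without their outer membrane, and here they were treated with RNase A outside the inner membrane before RNA was extracted. No genotype, drug or vector separated the groups, and all cells were grown in the same medium per the labels. Senescence was thus modelled by serial passage of 1 line. No group had a replicate, so no difference below has an error or a test.

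TGF-beta is made as a precursor that is cleaved into a mature dimer and a propeptide, and the propeptide stays wrapped around the dimer and keeps it inactive. In most cells of connective tissue this latent complex is bound to an LTBP, which anchors it in the matrix on fibrillin and fibronectin. Integrins, thrombospondin-1 and proteases can release the ligand, which binds the type II receptor TGFBR2, and TGFBR2 then activates the type I receptor TGFBR1, which phosphorylates SMAD2 and SMAD3. TGFBR3, also called betaglycan, is a co-receptor that presents ligand, above all TGF-beta 2. In lung fibroblasts the pathway drives matrix production and the myofibroblast state, and it is one of the secreted signals associated with senescent cells.

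The promoters of the ligand genes are shown because the 3 ligands stood at different levels and ranked the libraries differently. Each is the 250 bases before an annotated start, from RefSeq on GRCh38.p14, read 5′ to 3′ on the gene's strand, with matches to 4 short motifs in capitals: CGTCA (the half-site of the cAMP response element), TATAAA (the core of a TATA box), GGGCGG (a GC box, bound by SP1) and CACGTG (an E-box), each searched on both strands. No matches overlap in the windows shown.
TGFB1, minus strand, chr19:41353923-41354172: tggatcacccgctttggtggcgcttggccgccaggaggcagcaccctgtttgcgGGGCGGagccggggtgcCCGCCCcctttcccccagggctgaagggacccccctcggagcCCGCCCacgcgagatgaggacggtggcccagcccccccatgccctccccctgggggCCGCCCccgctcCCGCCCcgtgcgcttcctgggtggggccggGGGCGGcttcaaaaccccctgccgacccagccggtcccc
TGFB2, plus strand, chr1:218345086-218345335: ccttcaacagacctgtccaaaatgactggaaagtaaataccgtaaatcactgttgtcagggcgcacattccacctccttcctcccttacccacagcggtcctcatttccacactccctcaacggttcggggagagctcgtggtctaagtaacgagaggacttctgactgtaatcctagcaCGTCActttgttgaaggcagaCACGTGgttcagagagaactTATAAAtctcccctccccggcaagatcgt
TGFB3, minus strand, chr14:75981996-75982245: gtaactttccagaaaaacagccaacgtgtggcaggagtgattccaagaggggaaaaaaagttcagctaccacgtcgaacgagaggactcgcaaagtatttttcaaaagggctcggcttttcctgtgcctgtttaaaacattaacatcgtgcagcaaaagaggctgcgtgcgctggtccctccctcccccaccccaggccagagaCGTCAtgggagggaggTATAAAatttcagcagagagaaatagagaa
The TGFB1 window held 6 GC boxes and no match to the other 3 motifs. The TGFB2 window held 1 half-site, 1 E-box and 1 TATA box, and no GC box. The TGFB3 window shown held 1 half-site and 1 TATA box, placed close together. A second annotated TGFB3 start, whose window is chr14:75983012-75983261 and is not shown, had 1 E-box and none of the other 3 motifs. Among 35116 promoters of the same length, 21.2% held the half-site, 10.7% the TATA box, 42.6% the GC box and 6.34% the E-box, on either strand. The 10 genes had 23 such windows, of which 12 held a GC box, 5 a half-site, 2 a TATA box and 2 an E-box. These matches describe letters in the windows, and no factor's binding was measured.

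Levels are given in FPKM, in which fragments are divided by transcript length and by the size of the mapped library, so they can be set side by side between genes. In young whole cells the order by coding FPKM was TGFBR1 at 74.5, LTBP1 at 69.4, TGFBR2 at 31.9, LTBP2 at 20.0 and LTBP3 at 11.9. TGFB2 and TGFB3 stood near 1 FPKM there, and TGFB1, TGFBR3 and LTBP4 were listed at 0. In senescent whole cells the order was LTBP1 at 459, TGFBR1 at 74.3, TGFBR2 at 68.3, LTBP2 at 26.4, TGFB2 at 14.2, LTBP3 at 11.6 and TGFB1 at 11.2 coding FPKM. The signalling receptors and LTBP1 thus stood above every ligand in coding FPKM in both whole-cell libraries, with TGFBR1 there mostly through short incomplete transcripts. This order holds for coding types only. With noncoding types added, TGFB2 was at 50.0 FPKM in young whole cells, above TGFBR2. In senescent whole cells it was then at 546, above LTBP1, TGFBR1 and TGFBR2. Without replicates no neighbours in these orders can be said to differ beyond their spread. In these tables a 0 may be a failed estimate: of 1743 coding genes that reached 20 FPKM in young mitoplasts, 110 (6.31%) had a value of 0 in young whole cells.

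**Figure D1:**
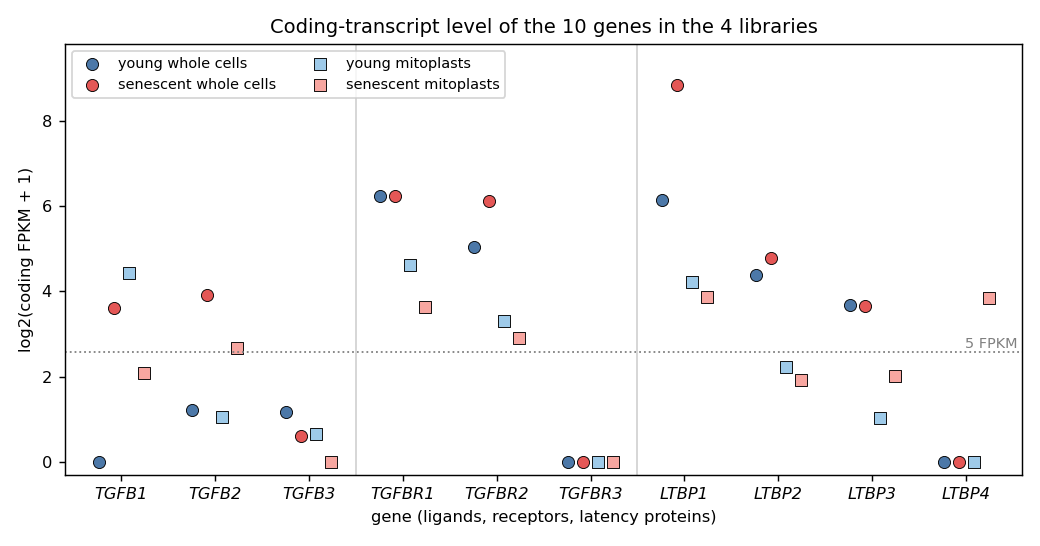
Coding-transcript level of each gene (vertical axis, log2 of FPKM + 1) in the 4 libraries, 1 point per library; circles are whole cells and squares mitoplasts, and the dotted line marks 5 FPKM. TGFBR1, TGFBR2 and LTBP1 lie above the line in all 4 libraries, TGFBR3 is listed at 0 in all, and LTBP1 in senescent whole cells is the highest point at 459 FPKM.

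Senescent and young whole cells were compared first, to see which components of the pathway differed between the cultures. Of the 10 genes, 7 reached 5 FPKM in 1 of the libraries. Of these, 4 were higher in the senescent library by a log2 ratio of 1 or more (TGFB1, TGFB2, TGFBR2 and LTBP1) and 0 were lower. Over all 6403 coding genes compared, 14.8% were higher and 23.6% were lower by this rule, and the median ratio was −0.23 against 1.08 for the 7 genes. The member median depends on the filter, since TGFB1 and TGFB2 reached 5 FPKM in the senescent library alone. TGFB3, TGFBR3 and LTBP4, which did not enter, had ratios of −0.57, 0.00 and 0.00. Without a filter the median of all genes was 0.00, which is not to be set beside the 1.08 of the 7 filtered genes. TGFBR1, LTBP2 and LTBP3, which entered, were at −0.00, 0.38 and −0.04. The count of 4 among 7 rests on the filter in the same way. Member medians in the other comparisons rest on the same filter. Ratios are log2 of (FPKM + 1), which understates the difference of low genes. When FPKM was rescaled to an equal sum over coding genes, the median of all genes was 0.53 and 74.1% of all calls were on the higher side, against 38.6% as deposited. With the median of ratios as the scale it was −0.06, with 47.6% of calls on the higher side. These 4 genes stayed above 1 under every scaling, but LTBP1 depended on the transcripts summed: it was at −0.17 with coding transcripts of 1000 nt or more, and at −3.72 with assembled transcripts. Relative to the median of all genes as deposited, they stood at 3.84 for TGFB1, 2.95 for TGFB2, 2.94 for LTBP1 and 1.31 for TGFBR2 on the log2 scale. In bulk RNA, fewer cells that express a gene and less RNA of it per cell cannot be told apart.

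**Figure D2:**
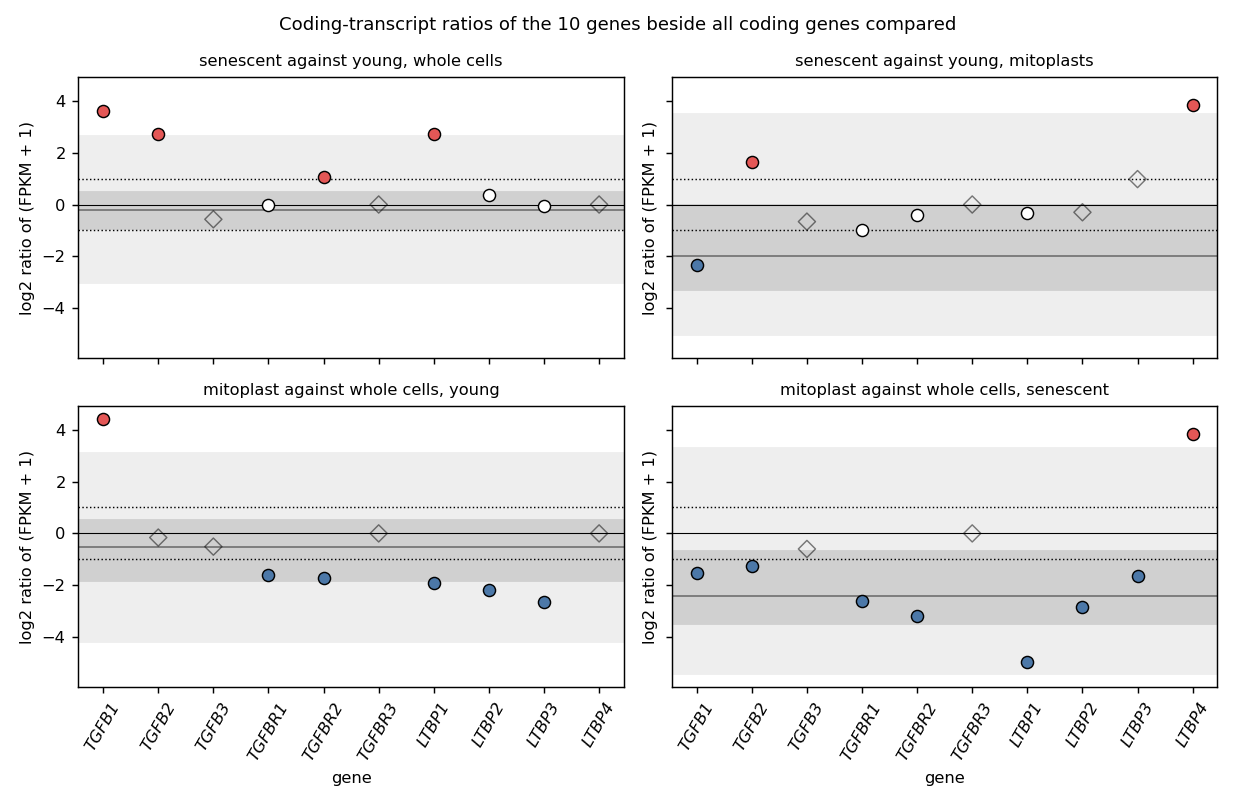
Log2 ratio of (FPKM + 1) for each gene in the 4 comparisons; the light band spans the 5th to 95th and the dark band the 25th to 75th percentile of all coding genes compared, with their median as a grey line and ratios of 1 and −1 dotted. Red and blue circles are genes higher or lower by 1 or more, white circles lie between, and open diamonds did not reach 5 FPKM; in whole cells the red points are TGFB1, TGFB2, TGFBR2 and LTBP1.

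TGFB2, the ligand that needs betaglycan for efficient receptor binding, was at 1.31 coding FPKM in young and 14.2 in senescent whole cells. In mitoplasts it was at 1.07 in the young and 5.42 in the senescent library. Both senescent libraries therefore stood above both young ones, by 10.8-fold in whole cells (log2 ratio 2.72) and 5.08-fold in mitoplasts (1.63). Most TGFB2 FPKM lay outside the coding transcripts: noncoding transcripts held 48.7 FPKM in young and 532 in senescent whole cells, 97.4% of the gene in each. In the young and senescent mitoplast libraries the noncoding transcripts summed to 5.24 and 5.22 FPKM, though they were not the same transcripts.

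A single short transcript, TGFB2-204, held most of this signal. It is a processed transcript of 405 nt, of which 75.8% lies in exons of complete coding transcripts, and its FPKM was 48.7 in young and 484 in senescent whole cells, 4.72 in young mitoplasts and 0 in senescent mitoplasts. The 1508 nt transcript TGFB2-203, 97.5% of it within such exons, was at 0 and 47.7 FPKM in young and senescent whole cells and at 0.512 and 5.22 in young and senescent mitoplasts. Between mitoplasts these noncoding transcripts thus differed in opposite directions. The coding isoforms also differed between libraries. TGFB2-202, which encodes the 414-residue precursor, was at 1.31, 0, 1.07 and 5.42 FPKM in young whole cells, senescent whole cells, young mitoplasts and senescent mitoplasts, whereas TGFB2-201, which encodes the 442-residue precursor, was above 0 only in senescent whole cells, at 14.2. Because the transcripts share exons, their division rests on the estimates of the authors' software. Multiplying each FPKM by transcript length and summing, which follows the fragments assigned to the gene if lengths were not corrected, gave 26.2 FPKM × kb in young and 340 in senescent whole cells, 13.0 times as much.

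TGFB1, the ligand most used to activate fibroblasts, did not follow one direction in the deposited values. Its coding transcript TGFB1-201, which encodes the 390-residue precursor, had a value of 0 in young whole cells and stood at 11.2 FPKM in senescent whole cells, 20.4 in young mitoplasts and 3.25 in senescent mitoplasts. As deposited, the senescent library was the higher of the pair in whole cells and the lower in mitoplasts, where it was 6.28-fold lower. The log2 ratio was 3.61 in whole cells, a value set by the pseudocount since one library was at 0, and −2.33 in mitoplasts. The mitoplast ratio lay 0.36 below the median of all genes, which was −1.97, and it turned to 0.21 under an equal sum over coding genes. All 4 annotated TGFB1 transcripts were at 0 in young whole cells.

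HNRNPUL1, a gene on the opposite strand that overlaps TGFB1, also had a value of 0 in young whole cells, and stood at 28.0, 76.6 and 13.7 FPKM in the other libraries in the same order. In young whole cells, and in no other library, the tables joined HNRNPUL1 and its neighbour AXL in 1 locus, with 79.0 FPKM in assembled transcripts given to neither gene. ENSG00000255730, another coding gene overlapping on the opposite strand, was at 34.5, 21.7, 7.66 and 0 FPKM. The part of these neighbours in the TGFB1 values was not tested. In senescent whole cells the TGFB1 locus held a further 13.1 FPKM in assembled transcripts.

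TGFB3, the third ligand, stayed low throughout. Its coding transcript was at 1.25 and 0.517 FPKM in young and senescent whole cells and at 0.576 and 0 in young and senescent mitoplasts, so it entered no comparison. Its noncoding transcripts were at 4.60, 3.16, 5.46 and 0 FPKM in that order. The opposite-strand gene IFT43, which overlaps TGFB3, stood far higher, at 185, 139, 11.7 and 19.3 FPKM.

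Among the receptors, TGFBR2 was the one that stood higher in senescent whole cells. Its coding FPKM was 31.9 in young and 68.3 in senescent whole cells, and 8.88 and 6.56 in young and senescent mitoplasts. The whole-cell fold was 2.14 (log2 ratio 1.08), just past the limit of 1, and the mitoplast ratio was −0.39. Both of its transcripts encode full-length receptors. TGFBR2-201, for the 567-residue form, was at 17.9 and 45.6 FPKM in young and senescent whole cells, and TGFBR2-202, for the 592-residue form with an insert near the amino terminus, was at 13.9 and 22.7. Both forms were the higher in senescent cells, and the 567-residue form made up 56.2% of the gene in young and 66.7% in senescent whole cells. In mitoplasts the shorter form alone was above 0, and it was the only transcript of the 10 genes above 0 in all 4 libraries.

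TGFBR1, the type I receptor kinase, was at 74.5 and 74.3 coding FPKM in young and senescent whole cells, a log2 ratio of −0.00. In mitoplasts it was at 23.5 and 11.4 in the young and senescent libraries. This level came mostly from short transcripts with an incomplete reading frame. TGFBR1-210 (526 nt) was at 32.7 and 43.5 FPKM and TGFBR1-204 (533 nt) at 37.0 and 26.9 in young and senescent whole cells. Coding transcripts of 1000 nt or more held only 4.70 and 3.88 FPKM, among them TGFBR1-209, for a 507-residue receptor, at 1.88 and 2.37. On that measure TGFBR1 stood below TGFBR2 in both whole-cell libraries, where the sum over all coding transcripts had placed it above. In senescent whole cells it then also stood below TGFB2 at 14.2 and TGFB1 at 11.2.

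TGFBR3 had no coding FPKM in any library. Noncoding TGFBR3 transcripts were at 2.51 and 0 FPKM in young and senescent whole cells and at 4.15 and 18.0 in young and senescent mitoplasts. The 18.0 FPKM was all in TGFBR3-205, a processed transcript of 569 nt. Its locus also held assembled transcripts at 5.45, 1.27, 0.707 and 0 FPKM in young whole cells, senescent whole cells, young mitoplasts and senescent mitoplasts.

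LTBP1, the binding protein that carries latent TGF-beta into the matrix in most fibroblasts, had the highest coding value of the 10 genes. Its level was 69.4 FPKM in young and 459 in senescent whole cells, a 6.60-fold difference (log2 ratio 2.71), and at 17.6 and 13.7 in young and senescent mitoplasts. The excess lay in 1 short transcript. LTBP1-209, of 593 nt with an incomplete reading frame, was at 0 in young and 397 FPKM in senescent whole cells, 86.6% of the gene. LTBP1-201, a short form of 1340 residues with a complete reading frame, was at 69.4 in young and 61.4 FPKM in senescent whole cells.

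LTBP1 was thus not higher by every measure. With coding transcripts of 1000 nt or more alone the whole-cell log2 ratio was −0.17, and it was also −0.17 with complete reading frames. Summing FPKM × kb over its annotated transcripts gave 344 in young and 539 in senescent whole cells, 1.57 times as much. The LTBP1 locus held 6411 FPKM of assembled transcripts without an identifier in young whole cells, against 30.6 in senescent whole cells, 10.3 in young mitoplasts and 11.2 in senescent mitoplasts. With them included the ratio was −3.72. An assembled transcript is named only by its locus in these tables, so what these transcripts contain is not known here. In young mitoplasts the gene was divided among LTBP1-204 at 7.25, LTBP1-203 at 5.43 and LTBP1-201 at 4.88 FPKM. Among transcripts matched to GENCODE, LTBP1-203, which encodes the long form of 1721 residues, was above 0 in that library alone. The locus also held unmatched Ensembl transcripts. For ENST00000354476 the young whole-cell library listed 53.7 FPKM, the senescent one 40.3, and both mitoplast libraries 0. ENST00000390003 was above 0 only in young mitoplasts, with 5.12 FPKM. Whether these encode the long form is not known here. Adding them to the coding sum gave a whole-cell log2 ratio of 2.01.

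LTBP2, a fibrillin-like matrix protein that does not bind the latent complex, was at 20.0 and 26.4 coding FPKM in young and senescent whole cells and 3.67 and 2.79 in young and senescent mitoplasts. The whole-cell log2 ratio was 0.38, and a single full-length transcript, LTBP2-201 of 1821 residues, held the annotated FPKM in both whole-cell libraries. Its locus also held 11.0 FPKM of assembled transcripts in young whole cells and 0 in senescent ones, and with them the ratio turned to −0.23.

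LTBP3, which carries latent complexes and has known roles in bone and teeth, was at 11.9 and 11.6 coding FPKM in young and senescent whole cells and 1.06 and 3.06 in young and senescent mitoplasts. The whole-cell log2 ratio was −0.04. The transcripts behind it were different: LTBP3-202 and LTBP3-201, both with complete frames, were at 5.63 and 6.30 FPKM in young whole cells, and LTBP3-218, with an incomplete frame, was at 11.6 in senescent whole cells. With complete reading frames alone the ratio was −3.69. The LTBP3 locus also held 18.5 FPKM of assembled and 7.30 of unmatched Ensembl transcripts in young whole cells, and 0 of each in senescent ones. The ratio was −1.33 with assembled transcripts included, and −0.69 with unmatched ones added to the coding sum. In senescent mitoplasts 2 retained-intron transcripts, LTBP3-205 (347 nt) at 46.7 and LTBP3-203 (849 nt) at 14.1 FPKM, stood above the coding ones.

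LTBP4, which in the lung supports elastic fibre assembly, was read almost wholly from retained-intron transcripts. Its coding FPKM was 0 in both whole-cell libraries and in young mitoplasts, and was 13.4 in senescent mitoplasts, from LTBP4-207, a 573 nt transcript with an incomplete frame. Its noncoding transcripts were at 75.0 FPKM in young and 5.24 in senescent whole cells and at 37.2 and 57.3 in young and senescent mitoplasts. The noncoding log2 ratio in whole cells was −3.61. Among noncoding transcripts of the other members it was 3.42 for TGFB2 and −1.81 for TGFBR3. LTBP4-223 (811 nt) was at 51.7 and 0 FPKM and LTBP4-204 (1700 nt) at 23.3 and 5.24 in young and senescent whole cells.

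When noncoding types were added to the sums, 9 of the 10 genes reached 5 FPKM in a whole-cell library. The same 4 genes were higher in the senescent one, and 1 gene, LTBP4, was lower. Over the 7650 genes compared in that way 13.8% were higher and 23.7% were lower. The median ratio was 0.38 for the members and −0.27 for all.

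**Figure D3:**
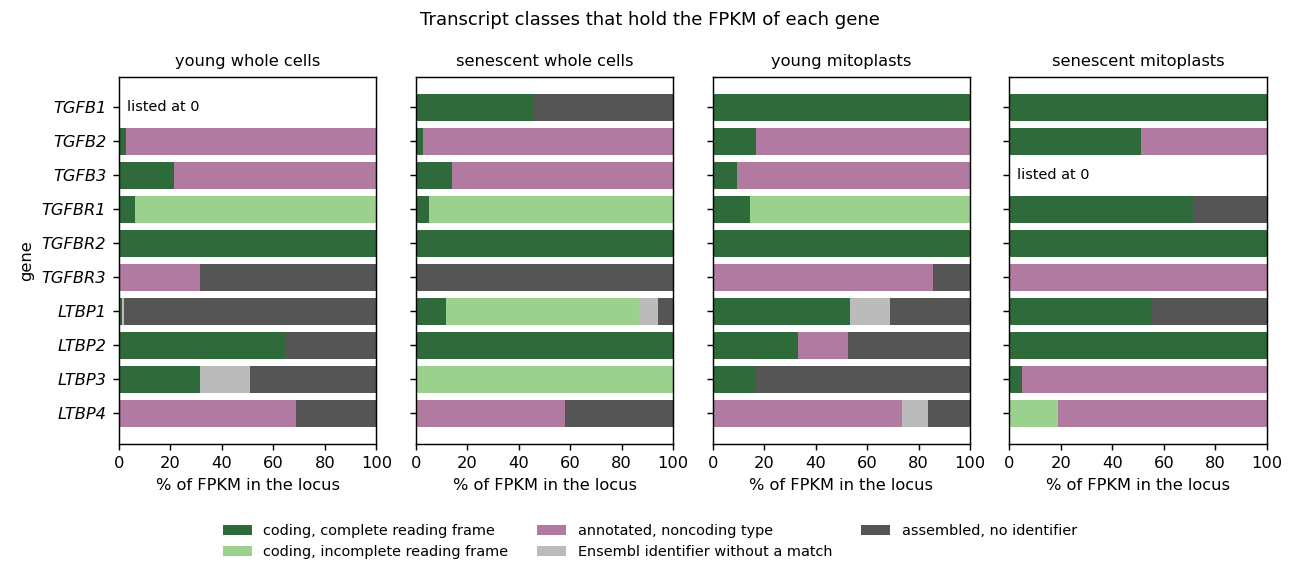
Share of the FPKM in each gene's locus (horizontal axis, percent) held by transcripts of 5 classes, in the 4 libraries from left to right. TGFBR2 is held by complete coding transcripts in every library, 97.4% of annotated TGFB2 FPKM in whole cells is of noncoding type, and assembled transcripts fill nearly all of LTBP1 in young whole cells.

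**Figure D4:**
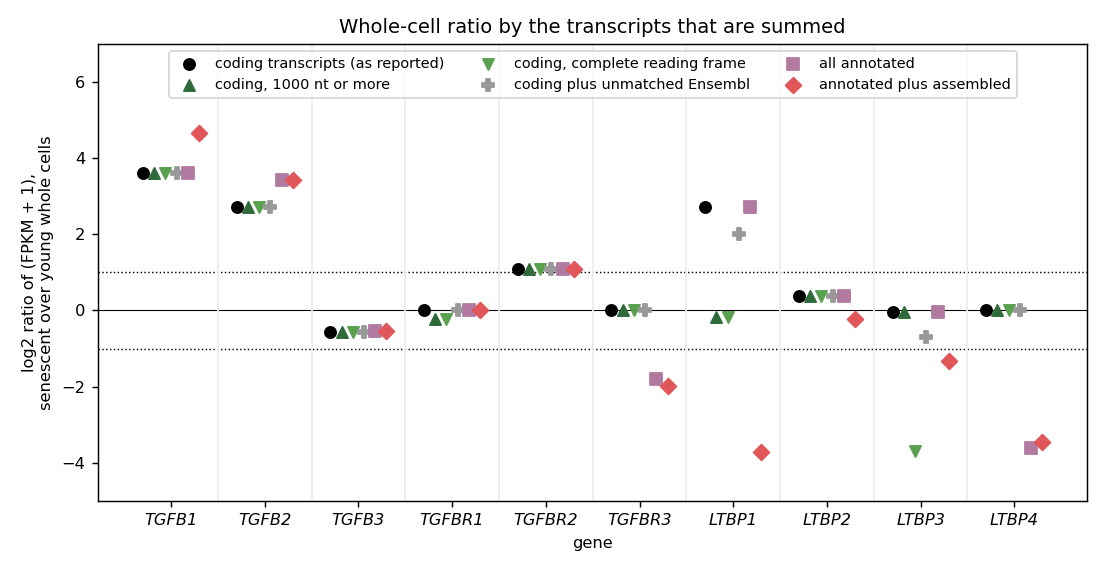
Log2 ratio of (FPKM + 1) between senescent and young whole cells for each gene, with 1 symbol for each choice of the transcripts summed; dotted lines mark 1 and −1. TGFB1, TGFB2 and TGFBR2 stay above 1 under all 6 choices, whereas LTBP1 runs from −3.72 to 2.71. For TGFBR2 the choices could not differ, since its FPKM lies only in 2 complete coding transcripts of over 1000 nt. TGFB1 has 1 annotated transcript above 0, so only assembled transcripts could move it.

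The mitoplast pair was compared next. Of the 10 genes, 6 reached 5 FPKM in 1 of the mitoplast libraries. TGFB2 and LTBP4 were higher in the senescent library, TGFB1 was lower, and TGFBR1, TGFBR2 and LTBP1 had ratios of −0.98, −0.39 and −0.33. With coding transcripts of 1000 nt or more, or with complete frames, TGFBR1 turned to 1.48, from 3.45 FPKM in the young and 11.4 in the senescent library. Over 5372 coding genes, 17.4% were higher and 64.3% were lower, with a median of −1.97 against −0.36 for the 6 genes. These values depend on the scale. With an equal sum over coding genes the median of all genes was 1.75, 73.3% of calls were on the higher side against 21.3% as deposited, 7 members were higher and 0 lower. With the median of ratios the median was −0.47 and 42.4% of calls were on the higher side. When noncoding types were added the TGFB2 ratio fell under 1, to 0.67, and the 2 higher members were instead TGFBR3 at 1.89 and LTBP3 at 4.98. The LTBP4 ratio was 0.00 with coding transcripts of 1000 nt or more. The senescent mitoplast library held 2607 coding genes at 5 FPKM or more, against 4523 to 5572 in the others, and 1780 of the genes compared were listed at 0 in it.

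The fraction comparison asked how the transcripts of these genes in mitoplasts stood against whole cells of the same age. In young cells 6 genes were compared: TGFB1 was higher in mitoplasts, and TGFBR1, TGFBR2, LTBP1, LTBP2 and LTBP3 were lower, with log2 ratios from −2.65 for LTBP3 to −1.62 for TGFBR1. TGFBR1 was at −0.36 and no longer past 1 with coding transcripts of 1000 nt or more, and likewise with complete frames. Of 6455 coding genes, 15.7% were higher and 39.0% were lower, and the median ratio was −0.52 against −1.83 for the members. With an equal sum the median of all genes was −1.29 and 11.1% of calls were on the higher side, with the median of ratios 0.02 and 44.4%, and with the upper quartile −0.11 and 40.9%, against 28.7% as deposited. The TGFB1 ratio of 4.42 was again set against a 0 in young whole cells.

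In senescent cells 8 genes were compared, 1 was higher in mitoplasts (LTBP4) and 7 were lower (TGFB1, TGFB2, TGFBR1, TGFBR2, LTBP1, LTBP2 and LTBP3). Of 5962 coding genes, 13.3% were higher and 70.8% were lower, and the median ratio was −2.41 against −2.12 for the members, so the members' counts lay near those of all genes. LTBP1 was at −4.96 and TGFBR2 at −3.20. The lower value of LTBP1 here includes its short transcript in whole cells, and with transcripts of 1000 nt or more it was at −2.08. TGFBR1 changed sign on that measure, from −2.60 to 1.34, since its senescent mitoplast value was held by the 1538 nt transcript TGFBR1-208 alone. LTBP3 was at 2.37 with noncoding types added, against −1.63, and LTBP4 at 0.00 with transcripts of 1000 nt or more, against 3.84. With an equal sum TGFB2 was at 0.04, against −1.24, the median of all genes was −1.10 and 34.0% of calls were on the higher side, and with the median of ratios −0.57 and 39.4%, against 15.8% as deposited.

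The libraries matched their labels in part. The proliferation gene MKI67 had 12.1 FPKM in young and 0.264 in senescent whole cells, and CDKN1A, the cell cycle inhibitor p21, at 93.7 and 152. LMNB1 was listed at 0 in all 4 in coding transcripts. MT-CYB, encoded in mitochondrial DNA, was at 4257 and 14663 FPKM in young and senescent whole cells and at 16952 and 29903 in the mitoplasts, while the cytosolic mRNA of ACTB was at 4530, 2964, 3176 and 272. GAPDH, also a cytosolic mRNA, was at 953, 863, 1818 and 292, and so stood higher in young mitoplasts than in young whole cells. Of 12 fibroblast markers, 10, 12, 10 and 7 reached 1 FPKM in young whole cells, senescent whole cells, young mitoplasts and senescent mitoplasts, with sums of 7742, 3837, 5553 and 704 FPKM. PDGFRB was at 0 in both young libraries, and LUM, PDGFRA, VIM, FAP and S100A4 were at 0 in senescent mitoplasts. Markers of other cell types were low: 9 epithelial markers summed to between 0.0650 and 13.6 FPKM and 8 blood markers to between 0.484 and 4.71. Of the epithelial markers 1, 0, 3 and 0 reached 1 FPKM in the 4 libraries in the same order, and of the blood markers 0, 0, 1 and 0. KRT5, KRT14, SFTPB and SFTPC, and PTPRC and CD3E, were at 0 in all 4, whereas EPCAM, KRT19 and SCGB1A1 were above 0 in young mitoplasts. The 6 endothelial markers listed summed to 29.0, 24.8, 8.23 and 9.22 FPKM, with 1 of them at 1 FPKM or more in each library, and CDH5 and TIE1 at 0 in all. Of 3 smooth muscle markers 1 passed 1 FPKM in each library, with sums of 48.6, 26.1, 11.4 and 3.99, and MYH11 was at 0 in all.

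The rest of the pathway was read from 6 gene lists in whole cells, against a share of 14.8% higher and 23.6% lower over all coding genes. Of 7 SMAD signal transducers, 3 were compared, 0 were higher and 2 were lower, with a median of −1.11. SMAD1, a transducer of BMP signals, was at 55.5 and 5.81 FPKM in young and senescent whole cells. SMAD3, which carries the TGF-beta signal, was at 1735 and 805, none of it in coding transcripts of 1000 nt or more. SMAD2, its partner, was listed at 0 in both, but was at 26.2 and 1.71 in young and senescent mitoplasts. ZFYVE9, the adaptor that presents SMADs to the receptor, was at 10.8 and 14.2.

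Of 12 inhibitors of the SMAD signal, 5 were compared, 2 were higher and 0 were lower, with a median of −0.24. SMURF2, a ubiquitin ligase that targets receptors and SMADs, was at 29.5 and 140 FPKM in young and senescent whole cells (log2 ratio 2.21), and BAMBI, a decoy receptor, at 1.86 and 6.05. SKI, TGIF1 and PPM1A, which repress SMAD transcription or dephosphorylate SMADs, had ratios of −0.65, −0.34 and −0.24. In coding transcripts of 1000 nt or more TGIF1 held only 2.05 and 0 FPKM, a ratio of −1.61. PPM1A held 0.807 and 1.37 there, a ratio of 0.39, and both genes were then under 5 FPKM. SKI kept its ratio, beside 1385 and 1032 FPKM of noncoding type. SMAD7, the feedback inhibitor, was at 2.90 and 4.19 FPKM, under the 5 FPKM filter.

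Genes that hold, cut or release the latent complex were divided. Of 22, 14 were compared, 2 were higher and 3 were lower, with a median of 0.04. THBS1, which encodes thrombospondin-1, an activator of latent TGF-beta, was at 245 and 1166 FPKM in young and senescent whole cells, and at 40.0 and 233 in young and senescent mitoplasts. ITGB5, an integrin chain that pairs with ITGAV on latent TGF-beta, was at 33.1 and 86.0 in whole cells, with ITGAV at 15.7 and 24.7. EMILIN1, a matrix protein that limits processing of the TGF-beta precursor, was at 56.6 and 10.5, and MMP2, a gelatinase, at 270 and 75.3. PLAU, the urokinase that generates plasmin, was the third of the lower genes, at 127 and 56.2. FBN1, the fibrillin to which LTBPs attach, was at 32.5 and 60.2 (log2 ratio 0.87).

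Of 11 co-receptors and extracellular binders, 7 were compared, 0 were higher and 3 were lower, with a median of −0.36. The neuropilins, which bind TGF-beta as well as semaphorins and VEGF, were both lower: NRP2 was at 90.6 and 7.86 FPKM and NRP1 at 49.7 and 5.59 in young and senescent whole cells. BGN, a proteoglycan that binds TGF-beta, was at 10.9 and listed at 0. ENG (endoglin) and DCN (decorin) had ratios of −0.36 and −0.34, and DCN was at 0.09 with coding transcripts of 1000 nt or more.

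Among 23 activin and BMP genes, 13 were compared, 5 were higher and 2 were lower, with a median of 0.41. INHBA, which encodes the activin A chain, was at 10.4 and 47.5 FPKM in young and senescent whole cells and at 5.39 and 18.8 in young and senescent mitoplasts. GDF6, a BMP ligand, was at 0.0620 and 11.5 in whole cells, NOG, a BMP antagonist, at 3.28 and 11.3, FSTL1 at 111 and 234, and BMPR2 at 9.24 and 20.0. GREM1, a BMP antagonist, was at 349 FPKM in young and listed at 0 in senescent whole cells, but at 91.8 and 41.3 in young and senescent mitoplasts. Whether its 0 was a failed estimate was not tested. GDF5 was at 5.24 and 0.577 in young and senescent whole cells.

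Known transcriptional targets of TGF-beta in fibroblasts did not move one way. Of 32, 26 were compared, 4 were higher and 7 were lower, with a median of −0.24 beside −0.23 for all genes. CCN2, a matricellular growth factor, was at 135 and 511 FPKM in young and senescent whole cells (log2 ratio 1.91), and TPM1, LOX and LOXL2, a tropomyosin and 2 collagen-crosslinking enzymes, had ratios of 1.31, 1.43 and 1.11. On the lower side, POSTN (periostin) was at 92.0 and 2.32, TNC (tenascin-C) at 110 and 3.72, and JUNB at 20.2 and 3.72. COL3A1, ID1, IL11 and TIMP1 were the other lower ones, with ratios of −1.21, −1.33, −1.17 and −1.17. ACTA2, the myofibroblast actin, was at 199 and 344 FPKM, a ratio of 0.79, under the limit. In mitoplasts 0 of 24 targets were higher and 14 were lower, where 17.4% and 64.3% of all genes were. With 1 library a group, none of these lists can be said to differ from other genes.

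The genes whose profile over the 4 libraries lay nearest to a ligand were searched among 5379 coding genes, by the Euclidean distance of centred log2 (FPKM + 1). Nearest to TGFB2 were PLOD2, a collagen lysyl hydroxylase, at 19.3, 121, 14.7 and 67.1 FPKM in young whole cells, senescent whole cells, young mitoplasts and senescent mitoplasts (distance 0.37), and TSC22D1 at 9.46, 58.0, 7.02 and 18.7 (0.40). Both were higher in the senescent library of each pair, as TGFB2 was. Nearest to TGFB1 were SPON2 at 0, 10.2, 25.4 and 2.24 FPKM (0.50) and DVL3 at 0, 11.8, 15.0 and 4.32 (0.54), both likewise at 0 in young whole cells. A profile over 4 libraries leaves many genes near any other, and these are descriptions only. The genes were picked by likeness over the same 4 libraries, so the directions and the 0 shared with a ligand come with the choice.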

How the data were processed

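RNA from 4 WI-38 samples was sequenced, with 1 library per group. The authors deposited FPKM per transcript, per the file headers, in 4 tables of 393483 transcripts each. Cufflinks 2.2.1, Cuffdiff, TopHat2 2.0.14 and the build hg19 appear in the submitters' processing notes, without their role, and the labels' protocols name a TruSeq RNA kit. For annotation release, strand setting and normalization nothing is given in the sources used here. These tables hold no counts, so depth is unknown and no interval is given. In loci of 1 transcript over 1500 nt, the value of rank 10 from the lowest above 0 was 0.0171, 0.0223, 0.0331 and 0.0420 FPKM × kb in young whole cells, senescent whole cells, young mitoplasts and senescent mitoplasts over 1638, 1645, 1064 and 487 such loci, and these ranks are not compared between libraries.

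An Ensembl identifier was found for 185591 transcripts, taken from any library that gave one, and 172595 (93.0%) matched GENCODE 29, used for names, types and lengths. Unmatched identifiers held 11.5% to 22.6% of the annotated FPKM. Values of transcripts typed protein coding were added up per gene. Genes at 5 FPKM or more in 1 of the libraries compared entered a comparison, and a log2 ratio with pseudocount 1 of 1 or more in size counted as higher or lower. The rule and its code were tested on simulated data. Python 3.11.15, pandas 2.3.3, numpy 2.4.6 and matplotlib 3.10.9 were used.

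The members and lists were chosen with earlier results of these data known. Named were all members with their leading transcripts, up to 4 genes per list with the largest whole-cell ratio among those at 10 FPKM or more in 1 and above 0 in both, label checks, and 2 nearest profiles per ligand that reaches 10 FPKM. Other list genes, and the genes overlapping TGFB1 and TGFB3, were named after their values were seen. Alternatives were 9 listed at the start and 2 added after seeing the data: complete reading frames, and unmatched Ensembl transcripts of the locus. No genome of the files' build was used, so gene coordinates are not given, and promoter windows come from RefSeq.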

Additional observations from a re-analysis of the deposited data

Results flagged for a closer look

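TGFB1 stood out because its effects had opposite signs under the same contrast. Between senescent and young libraries its log2 ratio was 3.61 in whole cells and −2.33 in mitoplasts. Between mitoplasts and whole cells it was 4.42 in young and −1.52 in senescent cells. These are the same 4 values arranged in 2 ways, and the positive ratios both rest on the 0 in young whole cells. The negative ones depend on the scale: −2.33 lies near the median of all genes, −1.97, and becomes 0.21 under an equal sum over coding genes, and −1.52 becomes −0.33 under an equal sum and −0.25 under the median of ratios. With 1 library per group the difference was not tested.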

How the results depend on the processing

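Of the 21 member ratios past 1 in size, 231 values were computed under the 11 alternatives, of which 206 stayed past 1 in the same direction, 11 reversed and 14 fell under 1 or to 0. A filter of 1 FPKM and no filter leave every ratio as it was, so those values were sure to stay. Sums over other transcripts likewise could not move TGFBR2, and the 206 thus overstates how stable the ratios are. TGFB2 in whole cells ranged from 2.61 to 3.42, TGFB1 from 3.19 to 6.82 and TGFBR2 from 1.08 to 1.77. LTBP1 in whole cells reversed to −0.17 with coding transcripts of 1000 nt or more, −0.17 with complete reading frames (an alternative chosen after seeing the data) and −3.72 with assembled transcripts. Between senescent fractions, LTBP3 reversed to 2.37 with all annotated transcripts, 2.37 with assembled ones and 2.02 with complete reading frames, TGFBR1 to 1.34 with 1000 nt or more and 1.34 with complete frames, and TGFB2 to 0.04 with an equal sum and 0.10 with the median of ratios. TGFB1 between mitoplasts reversed to 0.21 with an equal sum. Those changes in the transcripts summed follow from which transcripts each sum holds, and for the scalings the cause was not tested. Of the counts of members, 75 stayed within 1.5 times and 13 did not. An equal count need not hold the same members: between mitoplasts the 2 higher ones were TGFB2 and LTBP4 as reported, TGFBR3 and LTBP3 with all annotated transcripts, and TGFB2 and TGFBR1 with 1000 nt or more. In whole cells, lower members numbered 1 with all annotated transcripts (LTBP4), 4 with assembled ones (TGFBR3, LTBP1, LTBP3 and LTBP4) and 1 with complete frames (LTBP3). Between mitoplasts, lower members numbered 2 with a pseudocount of 0.1, 2 with all annotated transcripts, 3 with assembled ones and 0 with an equal sum, where higher members numbered 7. Between senescent fractions, higher members numbered 3 with all annotated and 3 with assembled transcripts, and lower members 4 with an equal sum and 4 with the median of ratios. Between young fractions, higher members numbered 2 (TGFB1 and LTBP4) when unmatched Ensembl transcripts, an alternative chosen after seeing the data, were added. Over all coding genes, higher calls in whole cells numbered 949 as reported and ranged from 738 to 2171, and lower calls 1509 and from 758 to 2142. Between mitoplasts they ran from 261 to 3361 (937 as reported) and from 1222 to 5884 (3455), between young fractions from 413 to 1857 (1016) and from 1733 to 3612 (2518), and between senescent fractions from 201 to 1946 (790) and from 2596 to 6576 (4219). The share of calls on the higher side moved by over 10 points also between mitoplasts, to 9.44% with 1000 nt or more and 11.0% with complete frames, and between senescent fractions to 5.74% with 1000 nt or more. No paired analysis was possible because each group had 1 library, and for the same reason none could be left out.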
